A study of Mus musculus with 18 samples.

Results

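The comparison is that of the cortical thick ascending limb (CTAL) with and without *Cldn10*, made on 10 of the 18 pools sequenced, 5 of each genotype. The cKO pools are numbers 2, 4, 7, 9 and 21 and the WT pools are numbers 1, 3, 8, 10 and 22, and values of single pools are listed in that order throughout. Of 55401 genes, 31217 had a count in at least 1 of the 10 pools, and the 11702 genes with at least 3 CPM (CPM, the reads of a gene scaled to a common normalized library size) in at least 5 pools were tested.

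All mice were adult males that the labels give as C57BL/6J. The cKO mice were Cldn10 fl/fl and carried Ksp-Cre, a recombinase driven by the Ksp-cadherin promoter of the distal nephron, and the WT mice were littermates that were Cldn10 fl/fl without the transgene, so that both groups had floxed alleles. The deletion and the presence of Cre therefore cannot be told apart. Each pool held 150 to 200 tubules dissected by hand from the left kidney of a single, distinct animal after liberase digestion.

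The thick ascending limb reabsorbs sodium chloride through the cotransporter NKCC2 without water, and the voltage this builds up drives cations through the tight junctions between the cells. Claudins are the junction proteins that set which ions pass. Claudin-10b lets sodium through, claudin-16 and claudin-19 let magnesium and calcium through, and claudin-14 restricts that divalent path and is controlled by the calcium-sensing receptor. In the cortical limb the hormones and receptors of calcium balance act on this last step, and loss of claudin-10 in the human and mouse limb is known for a disturbed balance of salt and of magnesium and calcium.

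The total counts of the 10 pools ranged from 10824328 to 62339991 with a median of 27793201. All 20 pairs of pools of the same group differed by more than sampling noise, with a chi-square per gene from 19.1 to 169.6. The sample title and genotype label of WT 1 name the knock-out whereas its pool name gives WT, and it was used as WT. The transcript *Xist*, which the inactive X chromosome makes in female cells, was at 8.40 CPM in cKO 2, 6.61 in WT 3 and 6.56 in WT 22 and between 0.235 and 0.746 in the other 7 pools, although every label gives a male. *Xist* and the Y-linked genes *Ddx3y*, *Eif2s3y*, *Kdm5d* and *Uty* summed to 112 CPM in cKO 2 and 102 CPM in WT 3 and in WT 22. Over all 10 pools the sum was 90.9 to 120 CPM, so the Y-linked genes were read in these pools too. The source of their *Xist* reads was not tested. Results without these pools, or with WT 1 counted as cKO, stand beside some of those that they change. The other counts under these settings are given with the dependence on processing at the end.

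*Cldn10* (ENSMUSG00000022132, chromosome 14 of GRCm38, bases 118787908 to 118875489, plus strand) was read at 448, 589, 388, 535 and 563 CPM in WT CTAL and at 175, 171, 156, 176 and 186 CPM in cKO CTAL. The highest cKO pool was far below the lowest WT pool, and WT 1 was among the WT pools. The group values were 505 ± 84.2 CPM (SD, n = 5) and 173 ± 10.6 CPM (SD, n = 5), so that the log2 fold change was -1.55 (SE 0.11, adjusted p = 5.57e-06 by edgeR's quasi-likelihood test) and 34.2% of the WT level was left. The study had left out a further cKO CTAL pool for its *Cldn10* level, so this gene had a part in the choice of pools, and gene-level counts sum all exons, the deleted ones and the others. With WT 1 counted as cKO the log2 fold change was -1.25 (adjusted p = 0.0286), and without the 3 pools with *Xist* it was -1.41. Of 20 other tested genes within 5 Mb of *Cldn10*, 0 passed an adjusted p of 0.05 in edgeR and 3 had an unadjusted p under 0.05, the lowest adjusted p being 0.255 for *Tmtc4*.

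The dissected tubules carried the markers of the limb in every pool. *Umod*, which encodes uromodulin, was at 49186 ± 2777 CPM in WT and 50723 ± 3310.0 CPM in cKO CTAL (SD, n = 5 each), and *Slc12a1*, which encodes NKCC2, was at 14466 ± 683 and 13849 ± 1438 CPM. Of 13 markers of the limb tested, 1 passed, *Cldn16*, and the median log2 fold change of the list was 0.11. None of 14 transcription factors of the limb passed, and their median was -0.02.

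A small part of the cortical transcriptome differed between cKO and WT. At an adjusted p under 0.05, 77 genes rose (0.658% of those tested) and 66 fell (0.564%), 143 in all (1.22%), and 55 of them differed by at least 2-fold (0.47%), 30 upward and 25 downward. Over all 11702 genes the median log2 fold change was 0.00 with the 5th and 95th percentiles at -0.38 and 0.36, and 1379 genes had an unadjusted p under 0.05. The CPM of the 2 groups did not overlap for 365 genes (3.12% of those tested), among them 122 of the 143 and 50 of the 55. When single pools were left out, the count of 143 moved between 75 and 188, being 75 without WT 10, 83 without cKO 21, 85 without cKO 7 and 93 without cKO 2 or WT 22, the count of 55 was 36 without cKO 2, and 57 of the 136 genes that could be tested in all 10 of these fits passed in each. Without the 3 pools with *Xist*, 29 genes passed, 19 of them with a 2-fold difference, and 140 passed with all pools kept and a term for those 3. The split between higher and lower depended on the scaling. On total counts without TMM factors 128 of 173 genes that passed were higher in cKO (36 of 55 with the 2-fold difference), and with limma on log2(TPM + 0.1) 77 of 85 were, the median log2 fold change of all genes being 0.06 and 0.13 in these fits. Of the 143, 6 (*Ano4*, *Gh*, *Hecw2*, *Il5ra*, *Slc24a3* and *Zfp648*) were below 3 CPM in every pool of 1 group, so that they were tested only through the group where they were high and had to differ.

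**Figure D1:**
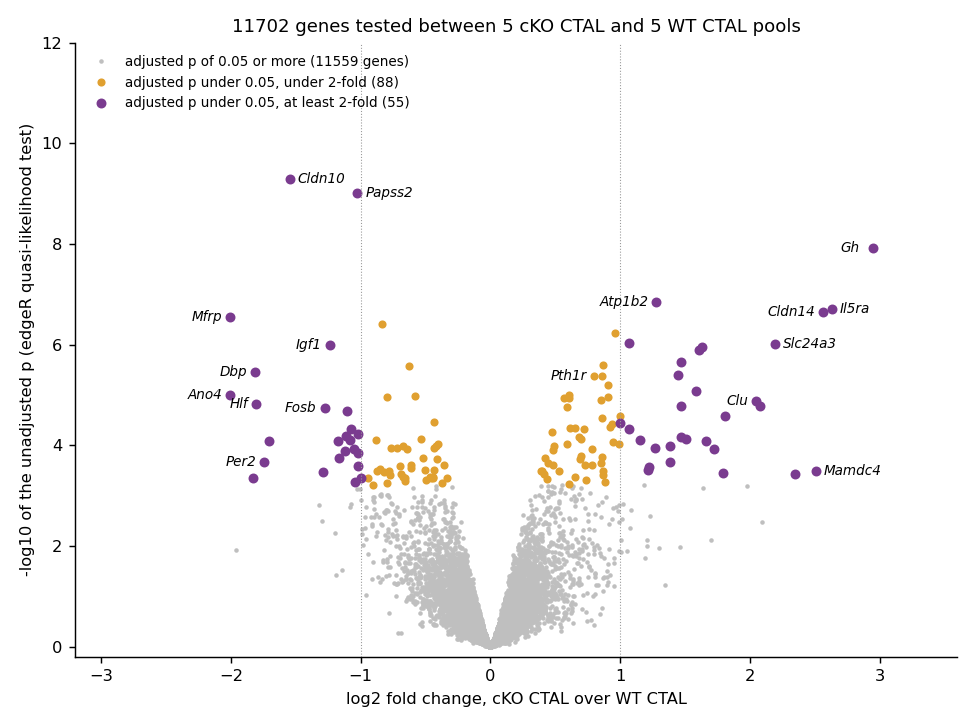
Log2 fold change of cKO over WT CTAL (x axis) against −log10 of the unadjusted p from edgeR's quasi-likelihood test (y axis) for the 11702 genes tested, 1 point per gene, coloured by whether the adjusted p and the 2-fold difference were passed. *Gh*, *Il5ra* and *Cldn14* lie farthest to the right and *Mfrp* and *Ano4* farthest to the left, while most genes sit within 2-fold of no difference.

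Of 23 tested genes of calcium and magnesium handling, 5 rose, 0 fell and 18 did not pass, with 19 of the 23 higher in cKO CTAL and a list median of 0.20 against 0.00 over all genes, and the members that rose were a claudin that restricts the path, a claudin that forms it, an exchanger, a hormone receptor and a hormone co-receptor. The largest rise was that of *Cldn14*, read at 5.90, 3.54, 4.34, 6.35 and 2.32 CPM in WT and at 14.9, 21.7, 35.3, 35.5 and 26.7 CPM in cKO CTAL. Every cKO pool was at more than the highest WT pool, and cKO 2 was the lowest of them. Its log2 fold change was 2.57 (SE 0.28, adjusted p = 0.000441), from 4.62 ± 1.93 to 30.2 ± 11.5 TPM (SD, n = 5 each), the unit that is corrected for transcript length.

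*Cldn16*, the partner of claudin-19 in the divalent path, was at 92.7, 68.6, 79.8, 78.4 and 76.7 CPM in WT and 106, 106, 96.1, 124 and 124 CPM in cKO CTAL. The groups did not overlap, although the log2 fold change was only 0.49 (SE 0.09, adjusted p = 0.0181). In transcripts per length it stood at 97.7 ± 11.9 TPM in WT and 148 ± 23.7 TPM in cKO CTAL, and therefore above *Cldn14* in both groups. The call was lost in 4 of the 10 fits with a pool left out (cKO 9, cKO 21, WT 10 and WT 22, highest adjusted p 0.0594). *Cldn19* had a log2 fold change of 0.14 (SE 0.08, adjusted p = 0.533).

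*Slc24a3*, which encodes the potassium-dependent sodium-calcium exchanger NCKX3, was low in all pools, at 2.23, 1.44, 1.08, 1.16 and 1.58 CPM in WT and 5.50, 7.33, 10.3, 5.66 and 5.32 CPM in cKO CTAL. These levels rest on 15 to 65 reads per WT pool and 106 to 373 reads per cKO pool, and the groups did not overlap. The log2 fold change was 2.19 (SE 0.27, adjusted p = 0.001), but with every WT pool below 3 CPM the gene was tested only through its cKO level and so had to differ.

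*Pth1r*, the receptor of parathyroid hormone, was at 306, 245, 299, 197 and 245 CPM in WT and 468, 457, 501, 436 and 389 CPM in cKO CTAL. All cKO pools were above all WT pools, with a log2 fold change of 0.80 (SE 0.11, adjusted p = 0.00236). *Kl*, which encodes klotho, the co-receptor of the phosphate-regulating hormone FGF23, was at 576, 493, 461, 496 and 463 CPM in WT and 803, 817, 756, 618 and 795 CPM in cKO CTAL. Here too the groups were separate, with cKO 9 nearest to WT (log2 fold change 0.61, SE 0.09, adjusted p = 0.0045). The other strand of *Pth1r* carries *Myl3*, and whether the counting used the strand is not given in the sources used here.

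The sensors of the same system did not pass. *Casr*, the calcium-sensing receptor, was at 948 ± 98.1 CPM in WT and 1087 ± 50.3 CPM in cKO CTAL (SD, n = 5 each, log2 fold change 0.20, adjusted p = 0.353). *Vdr*, the vitamin D receptor, was at 155 ± 28.0 and 189 ± 13.8 CPM (log2 fold change 0.28, adjusted p = 0.303). Without the 3 pools with *Xist*, *Cldn14* kept an adjusted p of 0.000349, while *Pth1r* (0.0711), *Kl* (0.091) and *Cldn16* (0.162) did not pass and *Slc24a3* was below the filter, so that 1 member of the list passed, and 3 passed without cKO 9 or cKO 21. Markers of the distal convoluted tubule, the segment downstream that also handles calcium, were higher in cKO CTAL for 5 of 5 tested, 0 of which passed, with a summed level of 1741 to 2402 CPM in WT and 2115 to 3587 CPM in cKO pools and none of the 9 listed markers at 0. Of these 5, *Calb1*, *S100g* and *Slc8a1* are also among the 23 of calcium and magnesium handling and enter its median, and the part of the segment in the rises of that list was not tested. *Slc12a3*, the defining cotransporter of that segment, was at 10.7 CPM in WT and 18.2 CPM in cKO CTAL on average (adjusted p = 0.74).

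**Figure D2:**
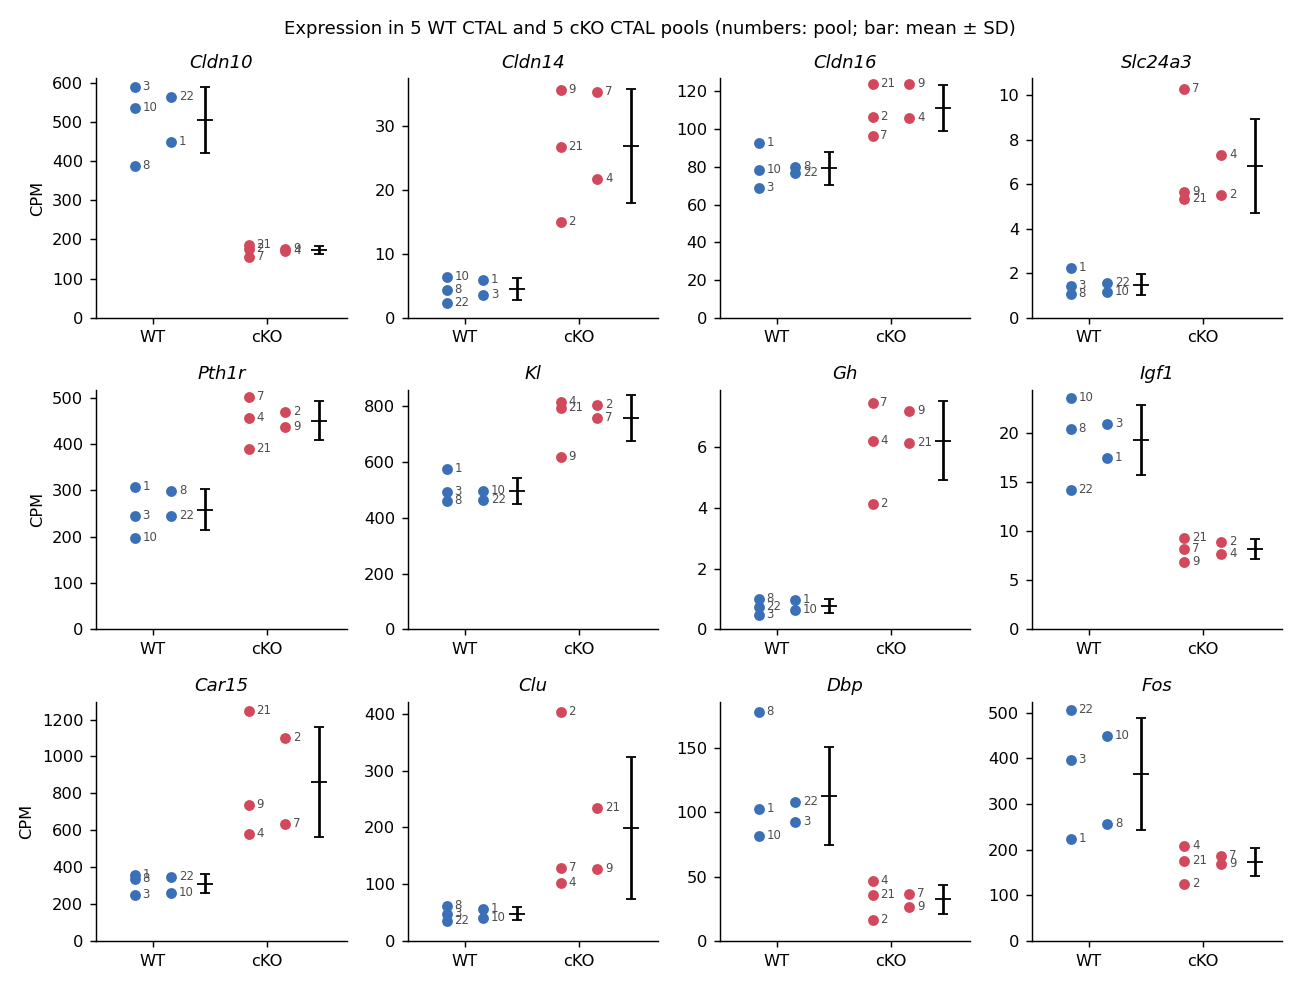
CPM (y axis, from 0) of 12 genes in the 5 WT and 5 cKO CTAL pools, 1 point per pool, with the mean as a line and the SD as a bar. *Cldn10* and *Igf1* were lower in every cKO pool, the claudins, *Slc24a3*, *Pth1r*, *Kl*, *Gh* and *Car15* were higher in every cKO pool, and cKO 2 stood at 404 CPM for *Clu*.

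Of 33 tight junction genes tested besides *Cldn10*, the same claudins, *Cldn14* and *Cldn16*, rose and 0 fell, and the list median was 0.03. Of the 33, 18 were higher and 15 lower in cKO CTAL, the lowest log2 fold change was -0.63, and 9 had an unadjusted p under 0.05 in edgeR. *Tjp1*, which encodes the scaffold protein ZO-1, had a log2 fold change of 0.03 (adjusted p = 0.93) and *Ocln*, which encodes occludin, of 0.14 (adjusted p = 0.58). *Cldn3*, *Cldn4*, *Cldn7* and *Cldn8* had log2 fold changes of -0.26, 0.75, 0.12 and 0.25, and none of these passed.

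Of 29 tested genes of salt transport, 2 rose, 1 fell and 26 did not pass, 8 had an unadjusted p under 0.05 and the median was 0.07. *Wnk1*, a kinase upstream of NKCC2 and of the thiazide-sensitive cotransporter, was at 832, 579, 740.1, 674 and 736 CPM in WT and 1010.2, 1019.7, 1327, 1023 and 1509 CPM in cKO CTAL. The lowest cKO pool was above the highest WT pool (log2 fold change 0.73, SE 0.13, adjusted p = 0.0112). *Atp1b2*, a minor beta subunit of the sodium pump in this segment, rose from 12.5 ± 1.38 to 30.6 ± 5.43 CPM (SD, n = 5 each, log2 fold change 1.28, adjusted p = 0.000406).

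*Kcnt1*, a sodium-activated potassium channel, was at 95.5, 119, 192, 126 and 129 CPM in WT and 50.5, 86.8, 84.4, 61.7 and 44.2 CPM in cKO CTAL. It fell by 1.02 on the log2 scale (SE 0.20, adjusted p = 0.0196), without overlap, and lost its call without cKO 2, cKO 9 or cKO 21 (highest adjusted p 0.0554). *Atp1b1*, the main beta subunit of the pump in the kidney, had a log2 fold change of 0.01. Per length, *Atp1b2* was a low transcript even in cKO CTAL, at 14.5 ± 1.92 TPM. Just short of the threshold lay *Kcne1*, a potassium channel subunit, at 2.44 ± 1.35 CPM in WT and 9.02 ± 6.31 CPM in cKO CTAL (log2 fold change 1.98, adjusted p = 0.0505).

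Among 31 tested genes of proton and bicarbonate transport, 2 rose and 1 fell, and the median was 0.12. *Car15*, a membrane-anchored carbonic anhydrase, was at 359.6, 249, 334, 261 and 348 CPM in WT and 1100.4, 579.7, 633, 739 and 1247 CPM in cKO CTAL. All cKO pools were above WT, with cKO 2 and cKO 21 highest (log2 fold change 1.47, SE 0.20, adjusted p = 0.00173). *Slc4a4*, a sodium-bicarbonate cotransporter, fell from 21.8 ± 2.80 to 14.0 ± 1.46 CPM (SD, n = 5 each, log2 fold change -0.64, adjusted p = 0.0176) and lost its call without WT 10, cKO 7 or cKO 21 (highest adjusted p 0.0558).

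*Atp6v0d2*, a subunit of the proton pump that intercalated cells also use, was at 15.6, 9.38, 12.2, 10.4 and 12 CPM in WT and 73.1, 15.7, 26.2, 41.0 and 32.2 CPM in cKO CTAL. The pool cKO 2 was the highest by far and cKO 4 was barely above WT 1. The log2 fold change was 1.66 (SE 0.31, adjusted p = 0.0152), 1.27 without cKO 2 (adjusted p = 0.0168), and the adjusted p was 0.0504 without WT 10. Of 15 tested markers of intercalated cells it was the only one to pass, and 13 of the 15 were higher in cKO CTAL. Their summed level was 568 to 644 CPM in WT and 624 to 877 CPM in cKO pools, none of the 16 listed was at 0, and their part in the rise of *Atp6v0d2* was not tested. *Foxi1*, the transcription factor that defines these cells, was at 5.40 and 9.79 CPM on average in WT and cKO CTAL (adjusted p = 0.43).

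Growth hormone gave the largest rise of all tested genes. *Gh*, the hormone gene that the pituitary expresses, was at 0.977, 0.479, 1.01, 0.648 and 0.740 CPM in WT and 4.13, 6.2, 7.46, 7.20 and 6.13 CPM in cKO CTAL. Each cKO pool held 122 to 474 reads of it and each WT pool 5 to 61 reads, and the groups were well apart. The log2 fold change was 2.95 (SE 0.26, adjusted p = 4.63e-05). In transcripts per length, the level went from 1.2 ± 0.35 to 10.4 ± 2.45 TPM. Since it was counted in enough pools only through the cKO group, fits without a cKO pool could not test it, and in the other 5 fits its highest adjusted p was 0.000404.

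*Igf1*, the growth factor that growth hormone induces in liver, went the other way, at 17.4, 20.9, 20.4, 23.5 and 14.2 CPM in WT and 8.86, 7.68, 8.17, 6.86 and 9.34 CPM in cKO CTAL. It fell by 1.24 on the log2 scale (SE 0.15, adjusted p = 0.001) without overlap and kept its call without the 3 pools with *Xist* (-1.36, adjusted p = 0.00404). Of 20 tested genes of the axis these were the only members that passed. The receptor *Ghr* was at 124 ± 9.42 and 126 ± 9.87 CPM (log2 fold change 0.02), *Igf1r* had a log2 fold change of -0.13 and the growth hormone response genes *Socs2* and *Cish* had 0.20 and -0.16.

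Of 17 tested genes of the circadian clock, 7 passed. The core factor BMAL1, encoded by *Arntl*, drives through E-boxes the genes of its repressors and of the PAR-bZIP factors DBP, TEF and HLF, and the nuclear receptors REV-ERB of *Nr1d1* and *Nr1d2* in turn repress *Arntl*, so that both arms peak at opposite times of day in tissues generally. Of 12 tested genes of the PER and PAR-bZIP arm, 6 fell and 0 rose, all 12 had a negative log2 fold change and the median was -0.76. Of 5 tested genes of the BMAL1 arm, 1, *Arntl*, rose and 0 fell, 3 were higher and 2 lower, and the median was 0.24. The hour at which each mouse was dissected is not given in the sources used here, so its part in these differences was not tested.

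Promoter letters are shown for *Tef* and *Hlf* of this group and, below, for *Fos* of the early genes. They are examples of genes that fell and whose window holds an element searched for, and other genes held these elements too. In the RefSeq promoters of GRCm38.p6, read over 250 bases before the start and on both strands, an E-box (CACGTG) was found in 6.02% of all 32851 promoters and in 2 of 9 promoters of the PER and PAR-bZIP arm, those of *Per1* and *Tef*, in 1 of 4 of the BMAL1 arm and in 5 of 24 of the early genes. The window of 30 bases of *Tef* (chr15:81802534-81802563, plus strand), which begins upstream of 1 of its 2 listed starts, holds the E-box in capitals 127 bases before that start.
Tef: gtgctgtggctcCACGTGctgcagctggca
A cyclic AMP response element (TGACGTCA) was found in 1.55% of all promoters and in 3 of the 24 of the early genes, 0 of the 4 and 1 of the 9, that of *Hlf* (chr11:90390918-90391167, minus strand), where the capitals mark it 9 bases before the start.
Hlf: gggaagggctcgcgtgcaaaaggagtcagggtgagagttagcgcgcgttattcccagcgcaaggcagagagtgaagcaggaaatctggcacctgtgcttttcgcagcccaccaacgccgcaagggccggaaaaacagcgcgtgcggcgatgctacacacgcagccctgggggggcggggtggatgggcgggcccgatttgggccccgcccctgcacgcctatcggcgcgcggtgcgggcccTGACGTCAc
The D-box (TTATGTAA or TTACGTAA), the element of the PAR-bZIP factors themselves, was found in *Per3* alone among the 9, in 0 of the 4 and of the 24 and in 0.931% of all promoters. The REV-ERB element AGGTCA was found in *Per1* and *Nr1d2* of the 9, in 2 of the 4, in 2 of the 24 and in 14.0% of all promoters. A match describes the letters only.

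*Dbp* was at 103, 92.5, 178, 81.4 and 108 CPM in WT and 16.5, 46.7, 36.4, 26.1 and 36.0 CPM in cKO CTAL. The lowest WT pool was above the highest cKO pool, WT 8 stood apart at the top, and the log2 fold change was -1.81 (SE 0.25, adjusted p = 0.00225). *Hlf* was at 7.35, 8.04, 21.1, 9.21 and 13.8 CPM in WT and 3.82, 4.54, 2.99, 2.89 and 2.91 CPM in cKO CTAL, again without overlap and with WT 8 highest (log2 fold change -1.81, SE 0.29, adjusted p = 0.00545). *Tef* was at 119, 109, 230.4, 142 and 154 CPM in WT and 50.4, 88.1, 68.7, 67.1 and 85.0 CPM in cKO CTAL. It fell by 1.07 on the log2 scale (SE 0.19, adjusted p = 0.0112).

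*Per2*, a repressor of BMAL1, was at 10.7, 11, 47.5, 14.6 and 21.9 CPM in WT and 6.15, 6.37, 5.08, 5.63 and 8.79 CPM in cKO CTAL. The spread of WT was wide because of WT 8, and the log2 fold change was -1.74 (SE 0.36, adjusted p = 0.0275) with it and -1.20 (adjusted p = 0.0249) without it. Its call was lost in 5 fits, without cKO 2, 4, 7 or 9 or WT 22 (highest adjusted p 0.0756). *Nr1d1* fell from 190.1 ± 37.4 to 115 ± 21 CPM (SD, n = 5 each, log2 fold change -0.72, adjusted p = 0.0175), with an adjusted p of 0.0508 without cKO 9, and *Nr1d1* overlaps *Thra* on the other strand. *Nr1d2* fell from 148 ± 19.9 to 85.6 ± 15.2 CPM (log2 fold change -0.79, adjusted p = 0.0045).

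*Arntl* was at 4.77, 4.41, 2.47, 6.14 and 3.77 CPM in WT and 19.2, 12.3, 7.21, 12.2 and 9.74 CPM in cKO CTAL. All cKO pools were above all WT pools, and cKO 2 was highest (log2 fold change 1.51, SE 0.28, adjusted p = 0.0151). Its partner *Npas2* did not reach the filter and was read at 0.928 to 2.59 CPM in WT and 2.44 to 5.85 CPM in cKO CTAL. The repressor *Ciart*, also under the filter, was at 2.11 to 12 CPM in WT and 0.305 to 1.09 CPM in cKO CTAL. *Per1* and *Per3* did not pass, with log2 fold changes of -0.39 (adjusted p = 0.544) and -1.32 (adjusted p = 0.0811), and *Clock* was at 0.28 (adjusted p = 0.3).

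With WT 1 counted as cKO, 3 of the 17 tested clock genes of both arms passed against 7, and the direction of the others held. In that fit *Dbp* had a log2 fold change of -1.39 (adjusted p = 0.0924), *Arntl* of 1.40 (0.0715), *Nr1d1* of -0.63 (0.088) and *Nr1d2* of -0.68 (0.0603). Without the 3 pools with *Xist*, 4 passed, *Dbp* (-1.74, adjusted p = 0.0126), *Hlf*, *Tef* and *Nr1d2*.

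**Figure D3:**
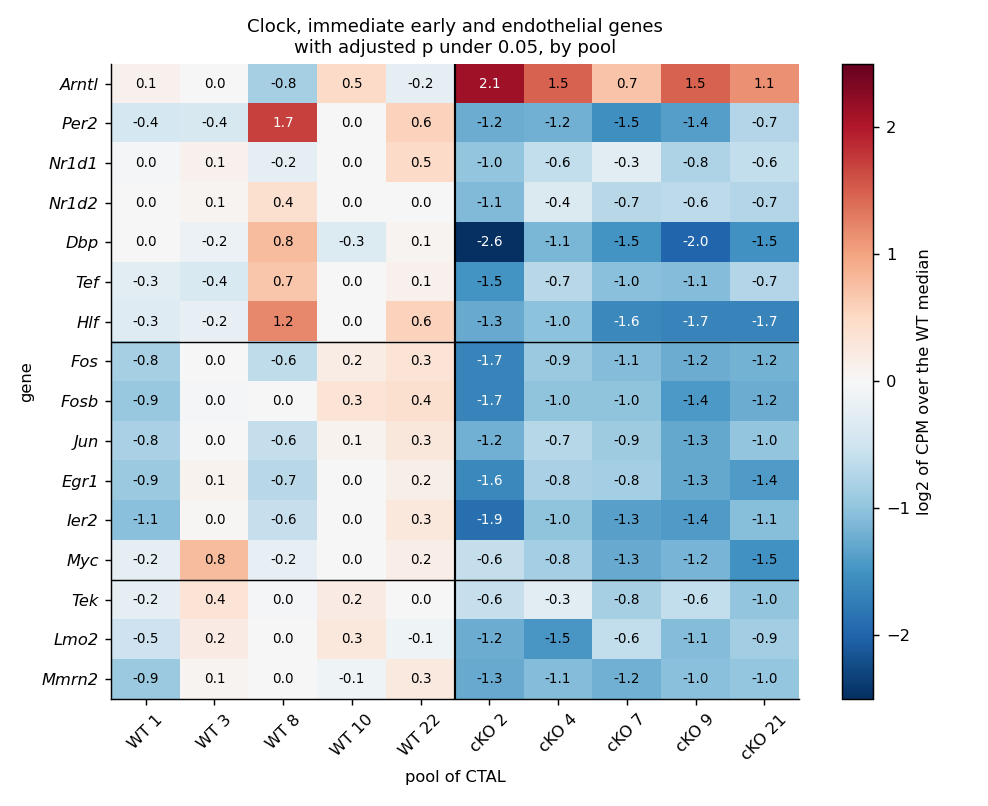
Heat map of log2(CPM over the median of the 5 WT pools) for the clock, immediate early and endothelial genes that passed (vertical axis) in the 10 CTAL pools (horizontal axis), with the colour scale in log2 units. *Arntl* is above the WT median in every cKO pool, *Dbp*, *Hlf* and *Tef* are below it in every cKO pool, and WT 8 is high for *Dbp*, *Hlf*, *Tef* and *Per2* while WT 1 is low for *Fos*, *Fosb* and *Jun*.

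Immediate early genes are those that cells transcribe within minutes of a stimulus. Of 30 tested, 6 fell, 0 rose and 24 did not pass, 27 had a negative log2 fold change, 17 had an unadjusted p under 0.05 and the median was -0.44. Those that fell encode subunits of the factor AP-1 (*Fos*, *Fosb*, *Jun*), the factors of *Egr1* and *Myc* and the nuclear protein of *Ier2*.

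The promoter of *Fos* (chr12:85473640-85473889, plus strand) holds the core of this element, TGACGT, which lies within the full element above, 66 bases before the start, as do 6.47% of all promoters and 6 of the 24 early gene promoters listed. The core is in capitals.
Fos: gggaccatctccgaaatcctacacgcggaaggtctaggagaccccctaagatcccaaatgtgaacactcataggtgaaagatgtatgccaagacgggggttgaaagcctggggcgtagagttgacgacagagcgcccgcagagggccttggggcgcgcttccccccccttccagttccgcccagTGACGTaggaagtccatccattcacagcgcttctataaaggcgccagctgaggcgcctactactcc

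*Fos* was at 223, 397, 257, 449.5 and 505 CPM in WT and 125, 208, 186, 169 and 176 CPM in cKO CTAL. The groups did not overlap, but WT 1 and WT 8 were near the highest cKO pool (log2 fold change -1.08, SE 0.20, adjusted p = 0.0151). *Fosb* was at 55.8, 105, 108, 136 and 142 CPM in WT and 33.9, 53.3, 53.8, 39.6 and 45.6 CPM in cKO CTAL, and WT 1 was barely above the highest cKO pool (log2 fold change -1.28, SE 0.20, adjusted p = 0.00572). *Myc* was at 14.8, 30.2, 15.1, 17.5 and 19.6 CPM in WT and 11.6, 9.73, 7.26, 7.84 and 6.08 CPM in cKO CTAL. It fell by 1.17 on the log2 scale (SE 0.22, adjusted p = 0.0152), again without overlap.

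*Jun* fell by 0.85, *Egr1* by 0.94 and *Ier2* by 1.12 on the log2 scale, with adjusted p of 0.0334, 0.0397 and 0.0181. The first 2 lost their call in 7 fits each, without cKO 2, 7, 9 or 21 or WT 3, 10 or 22, and *Ier2* in 5, without cKO 7 or 9 or WT 3, 10 or 22. The highest adjusted p in these fits were 0.0942, 0.117 and 0.0582. Members that did not pass included *Junb* (log2 fold change -0.85, adjusted p = 0.0648), *Zfp36* (-0.76, adjusted p = 0.08) and *Ier3* (1.08, adjusted p = 0.0929). Summed over the list, WT pools held 2571 (WT 1) to 4552 (WT 22) CPM and cKO pools 1839 to 3102 CPM. Without the 3 pools with *Xist*, in 1 fit of all 18 pools and by limma on log2(TPM + 0.1), 1 member passed in each case, and 3 passed without cKO 7 or 9 or WT 3, 10 or 22.

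All 26 tested markers of endothelium were lower in cKO CTAL, 3 of them past the threshold and 19 with an unadjusted p under 0.05, and the median was -0.54. The genes that fell were *Tek*, the angiopoietin receptor (from 29.4 ± 4.65 to 18 ± 3.53 CPM, SD, n = 5 each, adjusted p = 0.0301), *Mmrn2*, which encodes multimerin-2 (from 20.2 ± 5.40 to 10 ± 0.809 CPM, adjusted p = 0.0131), and *Lmo2*, a transcription cofactor (from 8.72 ± 1.75 to 4.31 ± 0.998 CPM, adjusted p = 0.0301). Their sum was 546 (WT 1) to 1055 (WT 3) CPM in WT and 475 to 616 CPM in cKO pools, and none of the 30 listed markers was at 0. The pool cKO 21 had the lowest endothelial sum and, at 3102 CPM, the highest early gene sum of the cKO pools. Fewer endothelial cells and less RNA per cell cannot be told apart in bulk samples, and the part of these cells in the falls of the early genes was not tested. Without WT 1, the lowest WT pool of both sums, 12 endothelial and 8 early genes passed, while 1 endothelial gene passed without cKO 2, 9 or 21 or WT 3, 10 or 22. *Lmo2* lost its call without cKO 2, 4, 9 or 21 or WT 3, 8, 10 or 22 (highest adjusted p 0.0988) and *Tek* without cKO 2, 7, 9 or 21 or WT 3, 10 or 22 (highest 0.0912).

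Of 16 tested genes of tubular injury, 4 rose and 0 fell, with a median of 0.38. *Clu*, the secreted chaperone clusterin, was at 57.1, 46.9, 61.3, 39.5 and 35.7 CPM in WT and 404, 103, 129, 127 and 234 CPM in cKO CTAL. All cKO pools were above WT and cKO 2 was the highest, and the log2 fold change was 2.05 (SE 0.32, adjusted p = 0.00481), or 1.62 without cKO 2 (adjusted p = 0.00264). *Gsn*, which encodes the actin-severing protein gelsolin, was at 40.5, 40.4, 38.6, 33.8 and 34.0 CPM in WT and 102, 65.8, 64.2, 66.9 and 92.3 CPM in cKO CTAL. It had little spread in WT and no overlap (log2 fold change 1.07, SE 0.13, adjusted p = 0.001).

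*Lgals3*, which encodes galectin-3, rose from 62.4 ± 10.6 to 125 ± 35.9 CPM (SD, n = 5 each, log2 fold change 1.0, adjusted p = 0.00984). *Krt18*, an intermediate filament keratin, rose from 9.97 ± 2.15 to 18.2 ± 3.21 CPM (log2 fold change 0.86, adjusted p = 0.0232) and lost its call in 6 of the 10 fits, without cKO 2, 7, 9 or 21 or WT 3 or 10 (highest adjusted p 0.0807). The early injury marker *Lcn2* was at 5.36, 4.98, 6.51, 6.52 and 8.24 CPM in WT and 84.7, 7.55, 6.70, 8.66 and 27.4 CPM in cKO CTAL (adjusted p = 0.122), so that it was high in cKO 2 and cKO 21 and within or near the WT range in the other 3. The list sum was 5546 CPM in cKO 2 and 2292 to 3479 CPM in the other cKO pools, against 1865 to 2120 CPM in WT. Genes of endoplasmic reticulum stress, none of which passed among 17 tested, also had their highest sum in cKO 2, at 5077 CPM against at most 2976 CPM in any other pool.

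**Figure D4:**
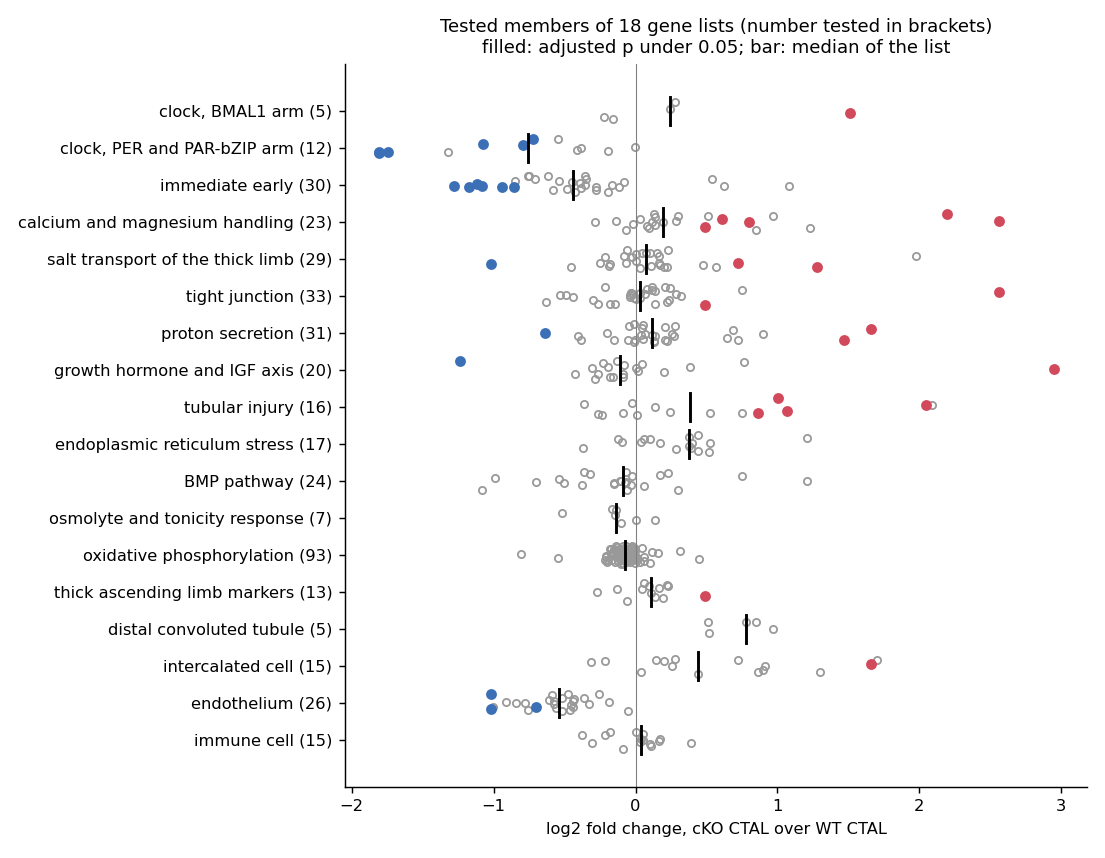
Log2 fold change of cKO over WT CTAL (x axis) of the tested members of 18 gene lists (y axis), 1 point per gene with those that passed filled, and the list median as a bar. The PER and PAR-bZIP arm of the clock (median -0.76) and endothelium (-0.54) lie to the left, calcium and magnesium handling (0.20) and injury (0.38) to the right, and salt transport (0.07) near 0.

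The metabolic, hormone and cell cycle lists had 1 or 2 members each that passed, where 1.22% of all tested genes did. Of 15 tested genes of fasting and gluconeogenesis, 2 fell, with a median of -0.18. *G6pc*, the last enzyme of gluconeogenesis, was at 8.21, 16.9, 10.7, 12.6 and 10.2 CPM in WT and 6.21, 4.67, 5.33, 6.12 and 4.47 CPM in cKO CTAL. It fell by 1.11 on the log2 scale (SE 0.20, adjusted p = 0.0145) without overlap. *Depp1*, a target of FOXO factors, fell from 8.76 ± 2.92 to 3.61 ± 1.14 CPM (SD, n = 5 each, adjusted p = 0.0344) and lost its call in 6 fits, without cKO 2, 4, 7 or 9 or WT 3 or 10 (highest adjusted p 0.107). Of 22 hormone, prostaglandin and kinin genes, *Ptgds*, a prostaglandin D synthase, fell from 19.7 ± 9.03 to 9.42 ± 0.900 CPM (adjusted p = 0.0456). Its call was lost in 8 of the 10 fits, without any cKO pool or WT 3, 10 or 22 (highest adjusted p 0.116), and the kinin receptor *Bdkrb2* was at 2.87 ± 1.55 and 9.24 ± 4.20 CPM (adjusted p = 0.0529). *Ccnd1*, which encodes cyclin D1, fell from 1081 ± 154 to 686 ± 171 CPM (adjusted p = 0.0397), the only 1 of 8 tested cell cycle genes to pass, with the call lost without cKO 4, 7, 9 or 21 or WT 3, 10 or 22 (highest adjusted p 0.115).

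Several lists had no member past the threshold. These were the 24 tested genes of the BMP pathway (median log2 fold change -0.09), 13 of corticosteroid response (-0.12), 7 of osmolyte and tonicity response (-0.14), 15 of hypoxia response (-0.09), 11 of heat shock (-0.07), 93 of oxidative phosphorylation (-0.07, 81 of them lower) and 157 with symbols that begin as those of cytosolic ribosomal proteins do (-0.04), among which are pseudogenes and S6 kinases such as *Rps6kb1*. The markers of proximal tubule (8 tested, median 0.33), thin limb (4, -0.83), principal cells (9, -0.01), immune cells (15, 0.04), and fibroblasts and pericytes (7, -0.25) also gave 0 each by edgeR, and so did the single tested marker of the macula densa, 2 of podocytes and 4 of red blood cells. A p that misses the threshold does not show that these levels were equal.

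The largest differences outside the lists rose for the cytokine receptor subunit *Il5ra*, at 1.25, 0.862, 0.961, 0.648 and 1.04 CPM in WT and 5.89, 7.33, 3.05, 5.53 and 7.99 CPM in cKO CTAL. The lowest cKO pool was cKO 7 (log2 fold change 2.63, SE 0.29, adjusted p = 0.000441), and the gene reached the filter of 3 CPM only through the cKO group. *Etv1*, an ETS transcription factor, was at 5.12, 1.53, 4.92, 3.51 and 1.88 CPM in WT and 8.82, 13.6, 15.3, 10.2 and 13.4 CPM in cKO CTAL. It rose without overlap (log2 fold change 1.81, SE 0.30, adjusted p = 0.00776), as did the zinc finger gene *Zfp648* (from 1.86 ± 0.604 to 8.14 ± 3.63 CPM, adjusted p = 0.00555) and *Dcdc2a*, of the doublecortin family (from 10.2 ± 2.08 to 31.9 ± 10.1 CPM, log2 fold change 1.63, adjusted p = 0.001). *Zfp648*, like *Il5ra*, reached the filter only through the cKO group and so had to differ.

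*Spns2*, the exporter of sphingosine-1-phosphate, was at 15.4, 16.4, 25.3, 15 and 15.6 CPM in WT and 128, 28.9, 29.8, 30.3 and 87.6 CPM in cKO CTAL. Its mean was carried by cKO 2 and cKO 21, with 3 cKO pools just above WT 8. The log2 fold change was 1.79 (SE 0.39, adjusted p = 0.0348) and 1.32 without cKO 2 (adjusted p = 0.0656), and the call was lost in 6 of the 10 fits (also without cKO 21 or WT 1, 3, 10 or 22, highest adjusted p 0.104). *Mamdc4*, which encodes an endocytic protein of the apical membrane, rose from 2.45 ± 2.25 to 14.2 ± 4.53 CPM (SD, n = 5 each, log2 fold change 2.51, adjusted p = 0.0334, lost in 6 of the 10 fits, without cKO 2, 4, 7 or 21 or WT 3 or 8, highest 0.0876), and it overlaps *Phpt1* on the same strand. *Gm16010*, an antisense transcript that overlaps *Spsb4*, rose from 2.92 ± 0.991 to 9.59 ± 3.99 CPM (adjusted p = 0.0176, and 0.0549 without cKO 7).

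Among the falls, *Mfrp*, a membrane frizzled-related protein gene, was at 19.2, 31.8, 27.3, 29.4 and 22.3 CPM in WT and 8.76, 8.69, 6.14, 4.89 and 3.72 CPM in cKO CTAL. The groups were far apart (log2 fold change -2.0, SE 0.23, adjusted p = 0.000467), and the call held in each of the 10 fits (highest adjusted p 0.00252). *Mfrp* overlaps 4 annotated genes (*C1qtnf5*, *Gm20444*, *Gm49380* and *Rnf26*), 3 on the other strand and 1 on the same strand. *Ano4*, of the anoctamin family, was at 3.68, 8.43, 5.04, 6.72 and 3.80 CPM in WT and 1.80, 1.66, 0.964, 1.49 and 0.753 CPM in cKO CTAL, on 15 to 98 reads in the cKO pools (log2 fold change -2.0, SE 0.30, adjusted p = 0.0045), and it reached the filter only through the WT group. The long noncoding RNA *Gm45650* fell from 9.03 ± 6.53 to 2.49 ± 0.843 CPM (SD, n = 5 each, adjusted p = 0.0397), a call lost in 8 of the 10 fits, without any cKO pool or WT 3, 8 or 10 (highest adjusted p 0.105). The ubiquitin ligase gene *Hecw2* fell from 4.61 ± 0.961 to 2.04 ± 0.479 CPM (adjusted p = 0.0236, lost without cKO 2 or cKO 21, highest 0.0652). *Hecw2*, like *Ano4*, reached the filter only through the WT group and so had to differ.

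The medullary limb (MTAL) of the same genotypes was read in 3 cKO and 5 WT pools of other animals. Its genotype effect was taken from a joint fit of all pools of both segments. The spread of each gene was estimated there from the CTAL pools too. The calls in MTAL are therefore not independent of those in CTAL. Of the 143 genes that passed in CTAL, 141 had the same sign in MTAL, where 62.6% of all 11702 genes had the same sign, and 121 (84.6%) also passed there, where 16.9% of the 11702 did. The exceptions in sign were *Slc4a4* (-0.64 in CTAL and 0.23 in MTAL) and *Phpt1* (-0.50 and 0.01). Among the larger rises, *Cldn14* had log2 fold changes of 2.57 and 4.80, *Gh* of 2.95 and 4.45, and *Clu* of 2.05 and 3.81 in CTAL and MTAL, and the interaction of genotype and segment was not past the threshold for these (adjusted p of 0.141, 0.278 and 0.173).

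The 6 early genes that fell in CTAL had log2 fold changes in MTAL of -0.17 for *Fos*, -0.73 for *Fosb*, -0.11 for *Jun*, -0.15 for *Egr1*, -0.06 for *Ier2* and -0.94 for *Myc*, of which *Myc* passed there (adjusted p = 0.0355). The test of the difference itself did not pass for any of the 6 (adjusted p of 0.373, 0.706, 0.428, 0.42, 0.242 and 0.849 in that order). *Dbp*, *Hlf* and *Tef* were at -1.48, -1.74 and -1.21 in MTAL and passed in both segments, and *Igf1* was at -1.92.

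The interaction passed for 36 of 12586 genes (0.286%), 8 of which had also passed in CTAL, and 1851 had an unadjusted p under 0.05. For *Cldn16* the WT level was 78.8 ± 8.97 CPM in CTAL and 21.5 ± 2.14 CPM in MTAL (SD, n = 5 each), and the cKO level was 111 ± 12.3 (n = 5) and 70.9 ± 13.2 CPM (n = 3). Its genotype effect was larger in MTAL by 1.23 on the log2 scale (adjusted p = 0.00121). For *Pth1r*, at 257 ± 45.1 and 54.7 ± 11.1 CPM in WT CTAL and MTAL and 451 ± 42.0 and 277 ± 80.2 CPM in cKO CTAL and MTAL, the difference was 1.53 (adjusted p = 0.00356). Both genes were higher in WT CTAL than in WT MTAL and differed less between the segments of cKO mice.

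*G6pc* was the gene with the largest difference in the downward direction, at 11.6 ± 3.19 CPM in WT CTAL and 61.5 ± 19.7 CPM in WT MTAL against 5.37 ± 0.808 and 9.16 ± 4.32 CPM in cKO (difference -1.67, adjusted p = 0.0453). The others were *Gabpb2* (-0.76) and *Gpx6* (-0.72), and the largest upward differences were those of *Psca* (3.07), *Gm42793* (3.06) and *Wnt10a* (2.37). The count of 36 was not stable. It was 570 without the pool cKO MTAL 18, 137 without WT MTAL 13, 67 without WT CTAL 3, 60 without WT MTAL 11 and 58 without cKO MTAL 16, and it was 15 to 23 without cKO CTAL 4 or 9, WT CTAL 1, 8 or 10 or WT MTAL 15 or 17.

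**Figure D5:**
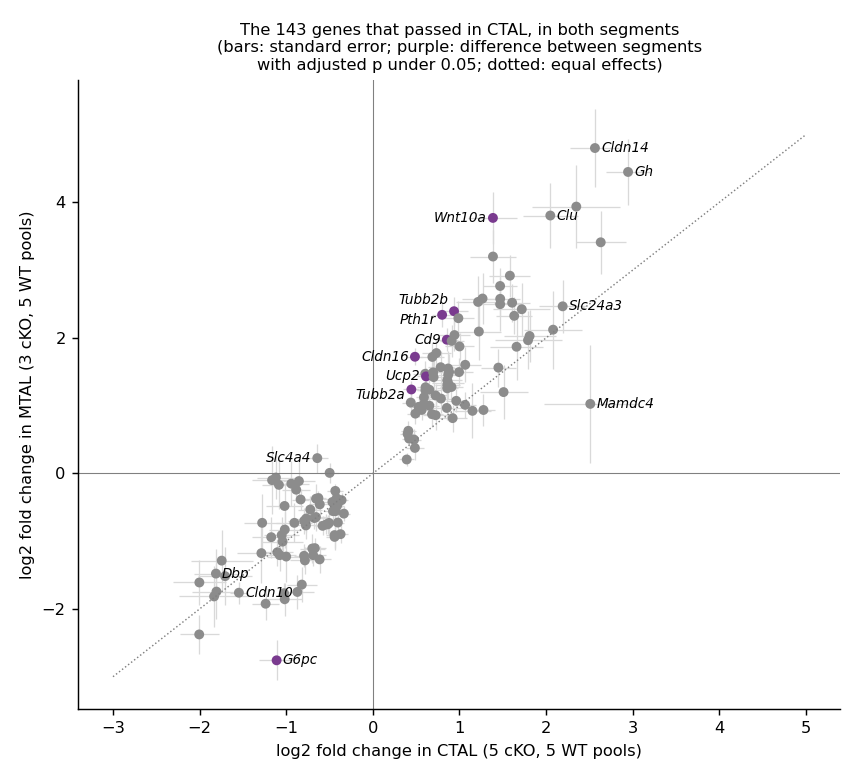
Log2 fold change of cKO over WT in CTAL (x axis) and in MTAL (y axis) for the 143 genes that passed in CTAL, with the SE of each as bars, a dotted line of equal effects, and the genes whose interaction passed in purple. All but 2 points lie in the quadrants of equal sign, and *Pth1r*, *Cldn16* and *G6pc* lie farther from 0 on the MTAL axis than on the CTAL axis.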

How the data were processed

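RNA of the 10 CTAL pools was compared as 5 cKO against 5 WT pools. All 18 pools entered the fit that gave the MTAL values and the test of the difference between segments. The authors made strand-specific poly-A libraries, trimmed the reads and quantified them per gene with the DRAGEN platform on mm10 with a gencode annotation, and FastQC, Trimmomatic and Picard are named in the submitters' processing notes. Whether the counting used the strand and how reads of several genes were treated is not given in the sources used here. The deposited values are the authors' estimated counts, without normalization. Between 6.26% and 9.53% of genes per pool had decimals, and all values were rounded, although the plan had assumed whole counts. The authors also deposited TPM values, which take account of transcript length and of depth.

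After TMM normalization (factors 0.971 to 1.09), genes at 3 CPM or more in 5 or more of the 10 pools were tested by quasi-likelihood in edgeR (version 4.0.16, under R 4.3.3), with Benjamini-Hochberg adjustment over the 11702 genes. A gene passed when its adjusted p was below 0.05, and 2-fold means a difference of at least 1 on the log2 scale. Levels are CPM on normalized library sizes. Total counts of 10824328 to 62339991 per pool put 1 read at under 0.1 CPM. Averaged over the tested genes, the spread between pools exceeded counting error. Counting error also limits the precision for genes of few reads, such as *Gh*, *Slc24a3* and *Ano4*. Each pool came from a distinct mouse, so n counts mice. The scripts were tested on simulated counts with known changes. Python (version 3.11.15) with pandas (version 2.3.3) made the tables.

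The genes named are *Cldn10*, the 12 largest rises and 12 largest falls among genes with a 2-fold difference whose CPM do not overlap, list members that passed, a few further members by their role, and the 3 largest differences between segments in each direction. The comparison, the lists and the rule were chosen with earlier results of these data known. Coordinates come from the GENCODE M21 annotation of GRCm38, that is mm10. Alternatives were other normalizations, filters and thresholds, the likelihood ratio test of edgeR, DESeq2 (version 1.42.0), limma (version 3.58.1) on log2 TPM values, a fit of all pools, each pool left out in turn, and WT 1 counted as cKO. The fits without the pools with *Xist*, or with a term for them, were chosen after seeing the data.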

Additional observations from a re-analysis of the deposited data

Results flagged for a closer look

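In 98 groups of 5 pools examined for a pool that stands apart from the other 4, 5 were found, and chance alone gives about 1 in 20 such groups. WT 8 stood apart from the other WT CTAL pools for *Dbp* at 178 CPM, *Nr1d2* at 183 CPM and *Spns2* at 25.3 CPM, in each case as the highest. WT 3 was the highest for *Gm45650* at 20.2 CPM, and WT 22 the lowest for *Gm16010* at 1.21 CPM. The CPM of cKO and WT CTAL did not overlap for these 5 genes, so leaving out the pool that stood apart could not change the direction of the difference.

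The genotype effect differed between the segments, by the interaction test of edgeR, for *Pth1r*, *Cldn16* and *G6pc*, list members that had also passed in CTAL. It was higher in MTAL than in CTAL by 1.53 on the log2 scale for *Pth1r* and by 1.23 for *Cldn16*, and the difference was -1.67 for *G6pc*. For *Pth1r* all 5 WT MTAL pools were below all other pools.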

How the results depend on the processing

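Of 1005 values of 48 named genes recomputed under the alternatives, 797 kept their direction and call, 208 kept their direction and lost the call, and 0 reversed. Settings are compared here with 143 genes that passed, 55 of them 2-fold, 37 members of lists (7 clock, 6 immediate early, 3 endothelial, 5 of calcium and magnesium handling, 4 of injury) and 36 genes that differed between segments. An adjusted p under 0.01 left 25 of the 55, and a filter at 10 CPM left 30, since fewer genes were tested. The likelihood ratio test of edgeR gave 331 genes. DESeq2's likelihood ratio test gave 360 genes, 69 list members, 10 early, 11 endothelial and 353 that differed between segments, and its Wald test gave 366, 70, 10 and 12. On log2(TPM + 0.1) limma gave 85 genes (77 higher in cKO), 20 list members, 2 clock, 1 early and 0 endothelial, where 19 endothelial markers had an unadjusted p under 0.05 in edgeR. On log2(TPM + 1) it gave 92 (83 higher), 21, 2, 1 and 0. In 1 fit of all 18 pools, 1 early gene passed. With WT 1 counted as cKO, 3 clock, 14 endothelial and 2 injury genes passed and 17 genes differed between segments, and with no filter 79 did. Without the 3 pools with *Xist*, 29 genes passed, 19 of them 2-fold, with 12 list members, 4 clock, 1 early, 0 endothelial, 1 of calcium and magnesium handling and 2 of injury. Fewer pools entered that fit, and otherwise the cause was not tested. With all pools kept and a term for those with *Xist*, 140 genes passed, 85 higher and 55 lower in cKO. Of the 48 named genes, 44 kept their call in that fit and 4 lost it. With 1 pool left out, the ranges were 36 to 66 for the 55, 75 to 188 for the 143, 22 to 55 list members, 5 to 7 clock, 3 to 8 early, 1 to 12 endothelial, 3 to 6 of calcium and magnesium handling, 3 to 4 of injury, -1.63 to -1.49 for *Cldn10* and 15 to 570 for the segments. The counts were highest without WT 1 for all but the clock, injury and segment counts.

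No paired analysis was made, since the groups share no pool number and the labels name no pairs. The WT mice were littermates of the cKO mice, and whether neighbouring pool numbers mark pairs is not given in the sources used here. The label of WT 1 conflicts with its pool name, and 3 pools labelled male held *Xist*. With 5 pools a group, the smallest p of an exact Mann-Whitney test is 0.00794. Gene-level counts do not separate transcripts, and reads of overlapping genes cannot be told apart without the strand.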

Other observations

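The genes of this section were chosen after their values were seen. All but *Trpv5*, a list member below the filter, passed in the CTAL comparison, and all but *Trpv5* and *Wnt10a* lie outside the lists and the rule for named genes. The most precise fall beside *Cldn10* was that of *Papss2*, a synthase of the sulphate donor PAPS, at 119, 131, 132, 132 and 116 CPM in WT and 56.4, 64.3, 63.8, 66.6 and 58.5 CPM in cKO CTAL. The groups were tight and far apart (log2 fold change -1.02, SE 0.07, adjusted p = 5.57e-06 by edgeR's quasi-likelihood test). *Unc5b*, a netrin receptor, fell from 44.0 ± 1.34 to 24.7 ± 3.01 CPM (SD, n = 5 each, adjusted p = 0.000558), and *Prom2*, which encodes the membrane protein prominin-2, from 152 ± 12.4 to 98.6 ± 9.80 CPM (adjusted p = 0.00179). A pair of genes of lipoprotein metabolism went in opposite directions. *Apoe*, which encodes apolipoprotein E, rose from 119.6 ± 25 to 226 ± 51.0 CPM (adjusted p = 0.011). *Lpl*, lipoprotein lipase, fell from 1057 ± 211 to 655 ± 116 CPM (adjusted p = 0.0363), with its call lost in 8 of the 10 fits with a pool left out (highest adjusted p 0.108).

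Of the Wnt ligands, *Wnt10a* was at 3.99, 3.45, 7.84, 3.48 and 4.61 CPM in WT and 19.7, 9.56, 12.7, 7.46 and 12.8 CPM in cKO CTAL. WT 8 overlapped cKO 9, and the log2 fold change was 1.39 (SE 0.28, adjusted p = 0.0271). *Wnt7b* fell from 48.4 ± 11.5 to 28.3 ± 5.95 CPM (adjusted p = 0.0369), and both ligands lost their call in 6 of the 10 fits (highest adjusted p 0.0849 and 0.11). *Samd5*, of unassigned role here, rose from 10.2 ± 0.789 to 27.7 ± 10.2 CPM (adjusted p = 0.00236). *Trpv5*, the calcium channel of the distal convoluted tubule, did not reach the filter and was at 0.0781 to 0.370 CPM in WT and 0.457 to 5.77 CPM in cKO CTAL, highest in cKO 2.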
